A study of Mus musculus with 6 samples.

Results

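Cholesterol handling was examined in activated mouse CD8 T cells through 8 genes: the liver X receptors Nr1h2 and Nr1h3, the cholesterol exporters Abcg1 and Abca1, the ubiquitin ligase gene Mylip, the sterol-responsive transcription factor genes Srebf1 and Srebf2, and the storage enzyme gene Soat1. They are the 8 rows with these gene names in a deposited table of 54532 genes. The genes were selected on the difference between knockout and wild-type libraries in these same data, in which Abcg1 had been seen to be low, so that contrast is given for them as a description with no test. The 6 libraries fall into 2 groups: 3 from Ptpmt1 knockout mice (KO) and 3 from wild-type mice (WT). In both groups CD8 T cells, the cytotoxic lineage, came from spleen and lymph nodes and were stimulated in culture for 3 days with beads carrying CD3 and CD28 antibodies, which engage the T cell receptor complex and its costimulatory partner. Ptpmt1 encodes a mitochondrial phosphatase needed to make cardiolipin. The labels do not give the strain, the age of the mice, the exons removed or the cells in which the knockout acts. Nor do they say whether each replicate is a different mouse. The p-values therefore measure only how far these libraries differ, and some of that spread may be technical.

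Liver X receptors (LXRs) are nuclear receptors that bind oxysterols, pair with retinoid X receptors, and switch on genes that move cholesterol out of the cell, such as the transporters Abca1 and Abcg1, or that lower its uptake, such as Mylip, whose protein IDOL marks lipoprotein receptors for destruction. The SREBP transcription factors work in the opposite sense: when membrane cholesterol is low, SREBP-2 raises the genes of cholesterol synthesis and uptake, while SREBP-1 mainly drives fatty acid synthesis. In T cells, activation is known to raise SREBP-driven lipid synthesis and to reduce LXR signalling, which makes sterol available for new membrane during division.

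Per library, 16462539 to 16819913 reads in KO and 14932604 to 16453314 reads in WT were assigned to genes, as rebuilt from the table. Ptpmt1 itself had 1.0004, 1.58 and 1.504 FPKM in KO replicates 1 to 3, against 3.75, 3.84 and 4.13 FPKM in WT replicates 1 to 3, so every KO library was below every WT library. FPKM is a fragment count scaled to gene length and a total for the library, so it can be compared between genes of different length. The totals behind the deposited FPKM were not the read totals above. They were 0.941, 0.78 and 1.096 times these in KO replicates 1 to 3, and 0.995, 1.028 and 1.072 times in WT replicates 1 to 3. Markers of CD8 T cells (Cd8a, Cd8b1, Cd3d, Cd3e, Cd3g and Trac) were present in every library and summed to 828 to 1530 FPKM in KO and 1330 to 1720 FPKM in WT. The sums overlapped, but Cd8a (129.6 ± 18.7 FPKM in KO and 198.9 ± 19.01 FPKM in WT; SD, n = 3 each), Cd3e and Trac were each lower in every KO library than in any WT library (log2 differences -0.62, -0.60 and -0.66, limma adjusted p = 0.149, 0.161 and 0.155). Their part in the member values was not tested. KO replicate 3 stood apart from the other 5 libraries. Its reads numbered 0 for Xist and 1837 for the Y-linked gene Ddx3y. In the other 5, Xist had 3513 reads or more and Ddx3y had 0. This is the pattern of male cells in KO replicate 3 and of female cells in the other 5, though the labels give no sex. By these genes sex is not balanced between KO and WT, and its part in the differences was not tested. KO replicate 3 also had the lowest share of mitochondrial reads, 2.38%, against 4.40% and 7.53% in the other KO libraries and 3.38% to 4.77% in WT. Values without KO replicate 3 are therefore given beside the member differences and list medians that it moves. KO replicate 2 departed in the other direction, with the highest mitochondrial share, 7.53%. Ribosomal protein genes took 18.95% of its reads, against 10.88% to 15.22% in the other libraries.

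Several members are tied together in the genome sequence, and those sequences are shown first because they carry the known links between the export genes and the SREBP genes. Srebf2 hosts the microRNA gene Mir33, whose mature 5p product lies at chr15:82198127-82198147 on the plus strand (RefSeq, GRCm38.p6), outside the exons of the coding Srebf2 transcripts. miR-33 is known to repress Abca1 and, in mice, Abcg1. Its seed, bases 2 to 8, is in capitals below. The 7-base complement of that seed, CAATGCA, occurs 2 times in the 3′ untranslated region of Abcg1 (3703 bases) and 3 times in that of Abca1 (3156 bases), with the second Abca1 copy overlapping the first. For each gene 1 transcript was searched, the one with the longest coding part, and the copies shown are in capitals with 11 bases on either side.
mmu-miR-33-5p: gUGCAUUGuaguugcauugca
Abcg1 bases 717 to 723 after the stop codon: ctaacgcaacgCAATGCAacgcaatgcag
Abcg1 bases 727 to 733 after the stop codon: gcaatgcaacgCAATGCAgacagtgctgg
Abca1 bases 135 to 141 after the stop codon: ctgacactattCAATGCAatgcacttcaa
Abca1 bases 150 to 156 after the stop codon: gcaatgcacttCAATGCAacgagaacaca
The other 6 members held 0 copies. Of 21022 genes with a 3′ untranslated region, 6.48% held a copy. Among genes whose region was within 20% of that of Abcg1 in length the share was 18.4%, and for the length of Abca1 it was 15.6%. A match is a description of the letters. Mature miR-33 was not measured, since the libraries were made from messenger RNA, and the Mir33 gene had 1 read in 1 WT library and 0 in the other 5.

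Start-site windows, from 250 bases before to 50 bases after the start of a gene, were taken from RefSeq (GRCm38.p6) for 7 of the 8 members, which gave 10 windows. Abcg1 had no entry. Windows were searched on both strands for the LXR response element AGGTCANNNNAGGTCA, with up to 3 mismatches. It was found in 2 of the 10 windows, those of Abca1 and of 1 of the 3 starts of Srebf1, and in 21.9% of all 32851 windows. The 2 matches read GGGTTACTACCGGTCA and GGGTTACTGGCGGTCA on the strand opposite to the gene, beginning 67 and 182 bases before the start, and 14 of their 16 letters are identical. The sterol response element core TCACCCCAC, with up to 1 mismatch, was found in 4 of the 10 windows (both overlapping windows of Nr1h3, Mylip and Srebf2) and in 9.82% of all windows. The copy in Srebf2 reads TCACCCCAT and begins 162 bases before the start. The CACGTG box was in 1 of the 10 windows, that of Abca1, and in 7.15% of all windows. GGGCGG was in 6 of the 10 windows and in 35.7% of all. CCAAT was in 5 of the 10 windows and in 37.4% of all. The windows of Abca1, Srebf1 and Srebf2 are printed 5′ to 3′ along the gene, with the LXR element match in capitals for Abca1 and Srebf1 and the sterol response element match in capitals for Srebf2.
Abca1 chr4:53159846-53160145 minus strand: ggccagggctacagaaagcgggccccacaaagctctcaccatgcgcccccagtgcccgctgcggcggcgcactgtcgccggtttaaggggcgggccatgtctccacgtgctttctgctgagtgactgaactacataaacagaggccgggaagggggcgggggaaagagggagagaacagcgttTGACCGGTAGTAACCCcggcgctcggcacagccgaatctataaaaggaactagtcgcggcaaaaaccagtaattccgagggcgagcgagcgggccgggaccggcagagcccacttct
Srebf1 chr11:60210422-60210721 minus strand: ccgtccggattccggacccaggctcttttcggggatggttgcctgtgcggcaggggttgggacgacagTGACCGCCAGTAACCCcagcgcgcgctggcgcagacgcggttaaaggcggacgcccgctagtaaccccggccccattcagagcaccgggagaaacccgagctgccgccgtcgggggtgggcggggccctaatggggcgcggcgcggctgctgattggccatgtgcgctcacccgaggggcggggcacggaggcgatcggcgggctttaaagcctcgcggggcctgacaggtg
Srebf2 chr15:82147019-82147318 plus strand: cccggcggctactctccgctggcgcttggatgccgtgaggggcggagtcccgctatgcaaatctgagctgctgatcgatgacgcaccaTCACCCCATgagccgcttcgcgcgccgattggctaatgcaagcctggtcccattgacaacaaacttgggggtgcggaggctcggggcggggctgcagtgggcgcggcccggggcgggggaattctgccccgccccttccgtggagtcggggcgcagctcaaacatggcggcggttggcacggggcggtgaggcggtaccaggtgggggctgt
No factor binding was measured, so these letters say nothing of occupancy in these cells.

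Nr1h2 encodes LXRβ, the form of the receptor found in most tissues (ENSMUSG00000060601, chromosome 7, 44549616 to 44553951, minus strand, mm10). It had 15.7, 12.5 and 21.5 FPKM in KO replicates 1 to 3, against 18.9, 21.2 and 23.1 FPKM in WT replicates 1 to 3. KO replicates 1 and 2 lay below every WT library and KO replicate 3 lay among them, so the groups overlapped. The means were 16.6 ± 4.58 FPKM in KO and 21.04 ± 2.12 FPKM in WT (SD, n = 3 each). The log2 difference, KO minus WT, was -0.365 (SE 0.222) on the scale of log2(FPKM + 0.5), a scale that understates the difference of low genes. Without KO replicate 3 it was -0.565 (SE 0.168), and without KO replicate 2 it was -0.183. In RNA from whole cultures, fewer cells of a type and less RNA per cell cannot be told apart, which holds for every value that follows.

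Nr1h3 encodes LXRα, the form typical of liver, fat and macrophages (ENSMUSG00000002108, chromosome 2, 91184061 to 91202834, minus strand). It lies 266 kb from Ptpmt1 on the same chromosome. Its level was near the limit of detection, with 0.177, 0.121 and 0.176 FPKM in KO and 0.631, 0.181 and 0.272 FPKM in WT. These rest on 7, 4 and 8 reads in KO and 26, 7 and 12 reads in WT. Every KO library was below every WT library in FPKM. In reads the groups overlapped, since WT replicate 2 had 7, KO replicate 1 had 7 and KO replicate 3 had 8. The separation in FPKM thus depends on the totals used for scaling. Nr1h3 was the 1 member that did not reach the filter for testing, a mean of at least 0.5 FPKM over the 6 libraries. Fitted without that filter, its log2 difference was -0.355 (SE 0.211). Among the genes that overlap it, the noncoding Gm13783 lies on the same strand and had 0 to 9 reads per library. In both groups Nr1h2 was therefore the receptor gene with the higher FPKM.

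Abcg1 encodes a transporter that works as a dimer and passes cholesterol to high-density lipoprotein (ENSMUSG00000024030, chromosome 17, 31057675 to 31117988, plus strand). In T cells it is known as an LXR target that limits the sterol available for division. Its level was 7.12, 6.71 and 5.52 FPKM in KO replicates 1 to 3, against 16.9, 16.2 and 14.1 FPKM in WT replicates 1 to 3. All 3 KO libraries lay below all 3 WT libraries. The means were 6.45 ± 0.833 FPKM in KO and 15.7 ± 1.49 FPKM in WT (SD, n = 3 each), so the KO mean was 41.0% of the WT mean. The log2 difference was -1.23 (SE 0.164), and without KO replicate 3 it was -1.13 (SE 0.147). The values rest on 358 to 456 reads in KO and 1005 to 1128 reads in WT.

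Abca1 encodes the full transporter that passes cholesterol and phospholipid to lipid-poor apolipoprotein A-I (ENSMUSG00000015243, chromosome 4, 53030787 to 53159895, minus strand). It had 0.705, 0.838 and 0.684 FPKM in KO replicates 1 to 3, against 1.83, 2.16 and 1.42 FPKM in WT replicates 1 to 3. The groups did not overlap, and WT replicate 2 was highest. The means were 0.743 ± 0.0835 FPKM in KO and 1.81 ± 0.370 FPKM in WT (SD, n = 3 each), so the KO mean was 41.1% of the WT mean, close to the share for Abcg1. The log2 difference was -0.88 (SE 0.228), and without KO replicate 3 it was -0.85 (SE 0.237). Because Abca1 is low, the added 0.5 FPKM shrinks this value. With 0.1 FPKM added it was -1.16, and on the rebuilt reads (114 to 128 in KO and 259 to 344 in WT) limma-voom gave -1.30.

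Mylip encodes IDOL, the E3 ubiquitin ligase through which LXRs lower lipoprotein uptake (ENSMUSG00000038175, chromosome 13, 45389742 to 45412022, plus strand). It had 4.11, 4.03 and 4.08 FPKM in KO replicates 1 to 3, against 7.33, 12.3 and 6.38 FPKM in WT replicates 1 to 3. The KO libraries were nearly equal and lay below all WT libraries, while WT replicate 2 stood well above the other WT libraries. The means were 4.07 ± 0.0387 FPKM in KO and 8.66 ± 3.16 FPKM in WT (SD, n = 3 each). The log2 difference was -0.95 (SE 0.246), without KO replicate 3 it was -0.95, and without WT replicate 2 it was -0.68. Reads numbered 171 to 238 in KO and 362 to 609 in WT.

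Srebf1 encodes SREBP-1, whose 1c form is itself an LXR target (ENSMUSG00000020538, chromosome 11, 60199089 to 60222581, minus strand). Its level was 20.2, 16.4 and 18.6 FPKM in KO replicates 1 to 3, against 23.3, 24.3 and 30.2 FPKM in WT replicates 1 to 3. Every KO library was below every WT library, with WT replicate 3 highest. The means were 18.4 ± 1.93 FPKM in KO and 25.9 ± 3.71 FPKM in WT (SD, n = 3 each), and the log2 difference was -0.48 (SE 0.171), or -0.49 (SE 0.179) without KO replicate 3. The table gives 1 value per gene, so the 1a and 1c forms cannot be separated. Srebf1 shares 109 bases with Rai1 on the opposite strand, which had 613 to 1587 reads in KO and 1246 to 1533 in WT. The strand setting of the counting is not given in the sources used here, so reads from that stretch are uncertain.

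Srebf2 encodes SREBP-2, the main activator of cholesterol synthesis (ENSMUSG00000022463, chromosome 15, 82147181 to 82205379, plus strand). It was the most abundant member, with 32.7, 25.5 and 40.2 FPKM in KO replicates 1 to 3 and 39.5, 39.3 and 40.2 FPKM in WT replicates 1 to 3. The WT libraries were nearly equal. KO replicates 1 and 2 lay below them and KO replicate 3 was level with the highest. The means were 32.8 ± 7.34 FPKM in KO and 39.6 ± 0.457 FPKM in WT (SD, n = 3 each), with a log2 difference of -0.29 (SE 0.196). Without KO replicate 3 it was -0.45 (SE 0.154), and without KO replicate 2 it was -0.13.

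Soat1 encodes the enzyme that esterifies cholesterol for storage in lipid droplets, which in CD8 T cells is known to hold down membrane cholesterol (ENSMUSG00000026600, chromosome 1, 156424525 to 156474331, minus strand). It had 2.50, 2.07 and 3.08 FPKM in KO replicates 1 to 3, against 3.19, 3.03 and 3.90 FPKM in WT replicates 1 to 3. KO replicates 1 and 2 lay below every WT library, while KO replicate 3 lay just above WT replicate 2, so the groups overlapped. The means were 2.55 ± 0.506 FPKM in KO and 3.37 ± 0.467 FPKM in WT (SD, n = 3 each), with a log2 difference of -0.35 (SE 0.198). Without KO replicate 3 it was -0.47 (SE 0.188).

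**Figure D1:**
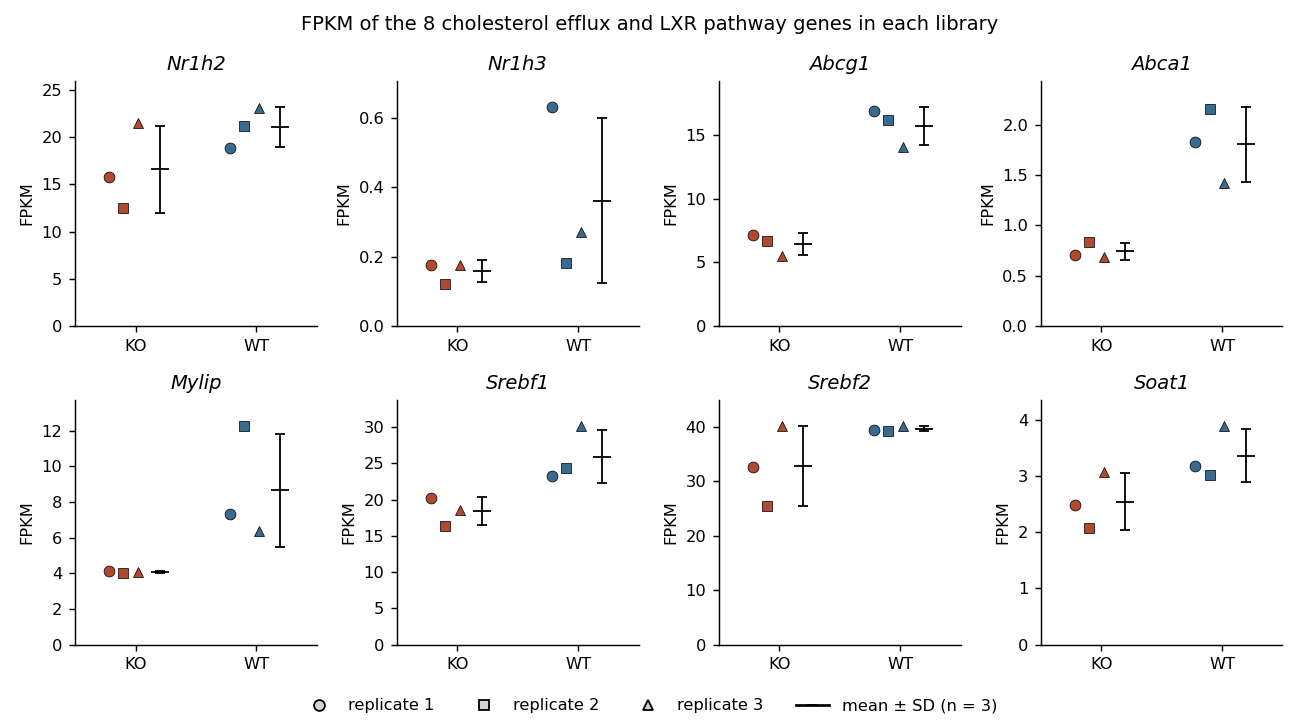
FPKM of each member (vertical axis, linear from 0, own scale per panel) in the 3 KO and the 3 WT libraries. Symbols mark the replicate number, and the bar beside each group is the mean ± SD (n = 3). Abcg1, Abca1, Mylip and Srebf1 have all KO points below all WT points, Nr1h3 does so by a narrow margin at under 1 FPKM, and in Nr1h2, Srebf2 and Soat1 KO replicate 3 reaches the WT range.

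Across the 8 members, the difference was negative in each. In 5 of them all KO libraries lay below all WT libraries in FPKM (Nr1h3, Abcg1, Abca1, Mylip and Srebf1), though the Nr1h3 reads overlapped. In the other 3 the groups overlapped through KO replicate 3. Of the 7 members past the filter, 4 had all KO values below all WT values. Among all 12654 genes past the filter, 13.3% had all KO values below all WT values and 14.5% had all KO values above them. Since the members were selected on this contrast, nothing is read from their count beside that background. The members differed among themselves in size: the exporters and Mylip had log2 differences of -1.23, -0.88 and -0.95, while the receptor Nr1h2 and the SREBP and storage genes had -0.48 to -0.29.

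The order of the levels was the same in both groups, on the FPKM scale. From high to low it ran Srebf2, Srebf1, Nr1h2, Abcg1, Mylip, Soat1, Abca1 and Nr1h3. The ranges of neighbours in that order did not overlap in either group, with the exception of Srebf1 (16.4 to 20.2 FPKM) and Nr1h2 (12.5 to 21.5 FPKM) in KO. The distances between levels were not the same. Nr1h2 and Abcg1 averaged 16.6 and 6.45 FPKM in KO, against 21.04 and 15.7 FPKM in WT.

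Ratios within a library do not depend on how libraries are scaled to each other, so they were formed between members. Abcg1 over Nr1h2, the exporter relative to the LXR form present, was 0.453, 0.538 and 0.257 in KO replicates 1 to 3, against 0.898, 0.764 and 0.610 in WT replicates 1 to 3. Abcg1 over Srebf2 was 0.218, 0.263 and 0.137 in KO, against 0.429, 0.412 and 0.351 in WT. Neither ratio overlapped between groups. Abcg1 over Abca1, the 2 exporters, was 10.1, 8.0 and 8.06 in KO and 9.24, 7.48 and 9.89 in WT, and the groups overlapped with nearly equal means of 8.72 ± 1.2 and 8.87 ± 1.25 (SD, n = 3 each). Nr1h2 over Srebf2 was 0.482, 0.489 and 0.535 in KO and 0.478, 0.539 and 0.575 in WT. Soat1 over Srebf2 was 0.0765, 0.0812 and 0.0766 in KO and 0.0807, 0.0770 and 0.0972 in WT. Both of these overlapped, as did Srebf1 over Srebf2, Abca1 over Nr1h2 and Mylip over Nr1h2. A ratio shows unequal difference of its 2 genes and does not show which of them was constant.

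**Figure D2:**
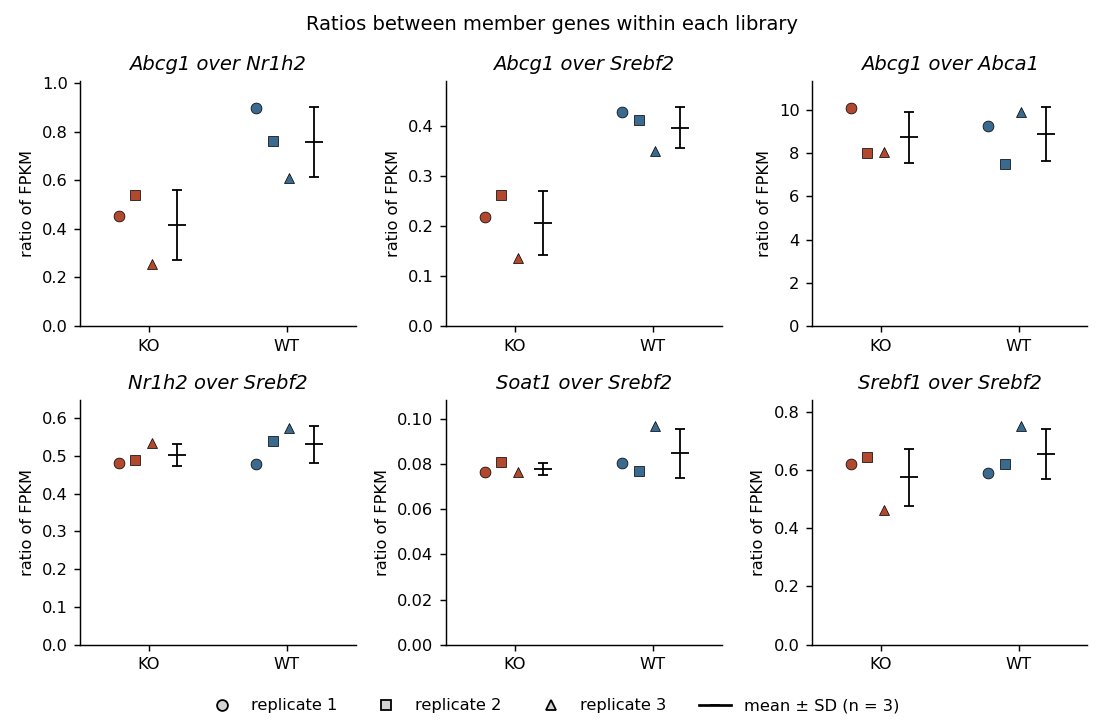
Ratios of FPKM between members within each library (vertical axes, linear from 0), with KO left of WT, symbols for the replicate number and the mean ± SD (n = 3) beside each group. Abcg1 over Nr1h2 and Abcg1 over Srebf2 are lower in all KO libraries than in any WT library, while Abcg1 over Abca1 and the 3 ratios to Srebf2 in the lower row overlap between groups.

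Among 6 of the 8 members, 2 sets of 3 were seen by how they varied over the 6 libraries. Abcg1, Abca1 and Mylip varied together, with Pearson r in log2(FPKM + 0.5) of 0.965 between Abcg1 and Abca1, 0.954 between Abca1 and Mylip, and 0.878 between Abcg1 and Mylip. Nr1h2, Srebf2 and Soat1 also varied together, with r of 0.962 between Nr1h2 and Srebf2, 0.937 between Nr1h2 and Soat1, and 0.904 between Srebf2 and Soat1. Between the sets r was lower, from 0.46 between Abca1 and Nr1h2 to 0.589 between Abcg1 and Soat1. Srebf1 lay between them, with r of 0.642 (Mylip) to 0.798 (Abcg1) to the first set and 0.701 (Srebf2) to 0.871 (Soat1) to the second. Nr1h3 stood with neither, with r of 0.301 with Nr1h2 and at most 0.649, with Abcg1. These are descriptions over 6 libraries in 2 groups, which share the group difference and the make-up of each library.

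Among 9513 protein-coding genes with a mean of at least 1 FPKM, the 5 whose pattern over the 6 libraries was most like that of Abcg1 were Lmbr1l (r = 0.998), Tmub2 (r = 0.994), Tubb4a (r = 0.993), Arhgef6 (r = 0.991) and Tm6sf1 (r = 0.991). Lmbr1l had 6.06, 5.67 and 5.02 FPKM in KO replicates 1 to 3, against 11.8, 12.2 and 10.8 FPKM in WT replicates 1 to 3. Genes chosen by likeness to Abcg1 tend by construction to share its separation of the groups and its lowest value in KO replicate 3.

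Other cells in the cultures were looked for through their markers. The 10 macrophage and monocyte markers, of interest because LXR targets are abundant in those cells, summed to 1.45 to 6.73 FPKM in KO and 4.21 to 5.80 FPKM in WT, with 3 at 0 in every library and 8 averaging under 0.5 FPKM. The 5 B cell markers summed to 13.4 to 15.1 FPKM in KO and 18.7 to 25.0 FPKM in WT, and the 2 markers of CD4 T cells (Cd4 and Foxp3) to 0.305 to 0.554 FPKM in KO and 0.868 to 2.02 FPKM in WT. Both sums were lower in every KO library than in any WT library, as Abcg1 and Abca1 were, and their part in the member values was not tested. Markers of granulocytes and mast cells (S100a8, S100a9, Ly6g, Cpa3 and Mcpt8) summed to 13.8, 10.2 and 71.5 FPKM in KO replicates 1 to 3. In WT they summed to 5.74 to 17.1 FPKM. In KO replicate 3, Mcpt8 and Cpa3 gave 43.3 and 25.9 FPKM of the 71.5 FPKM. The neutrophil markers S100a8, S100a9 and Ly6g had 1.76, 0.637 and 0 FPKM there. The sums for dendritic, natural killer and erythroid markers overlapped between the groups.

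Around the members, 147 other genes of sterol and lipid handling were set out in 9 lists, of which 102 passed the filter and were tested with limma over all 12654 genes. None was called at a Benjamini-Hochberg adjusted p under 0.05, the background being 5 called genes or 0.0395%, and limma-voom on the rebuilt reads also called 0 of them. At an unadjusted p under 0.05, 17 of the 102 were lower in KO, beside 10.2% of all genes, and 8 were higher in KO, beside 11.5% of all genes. All KO values lay below all WT values in 24 of the 102, beside 13.3% of all genes, and above them in 10, beside 14.5% of all genes. The median log2 difference of a list is set below against that of all genes tested, which was 0.031, and 0.011 to 0.035 with each library left out in turn. Without KO replicate 3, 15 of the 102 were called, 11 lower in KO (background 5.58%) and 4 higher in KO (background 8.12%). In that comparison the genes called lower included Npc2, Abca3, Abca7, Arl4c, Ep300, Gramd1a, Nrip1, Ncoa2 and Ncor1, and those called higher were Msmo1, Erlin1, Idi1 and Tmem97. Apart from Npc2, Abca7, Arl4c and Tmem97, which are among the most abundant of their lists, these names were picked after their values were seen.

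**Figure D3:**
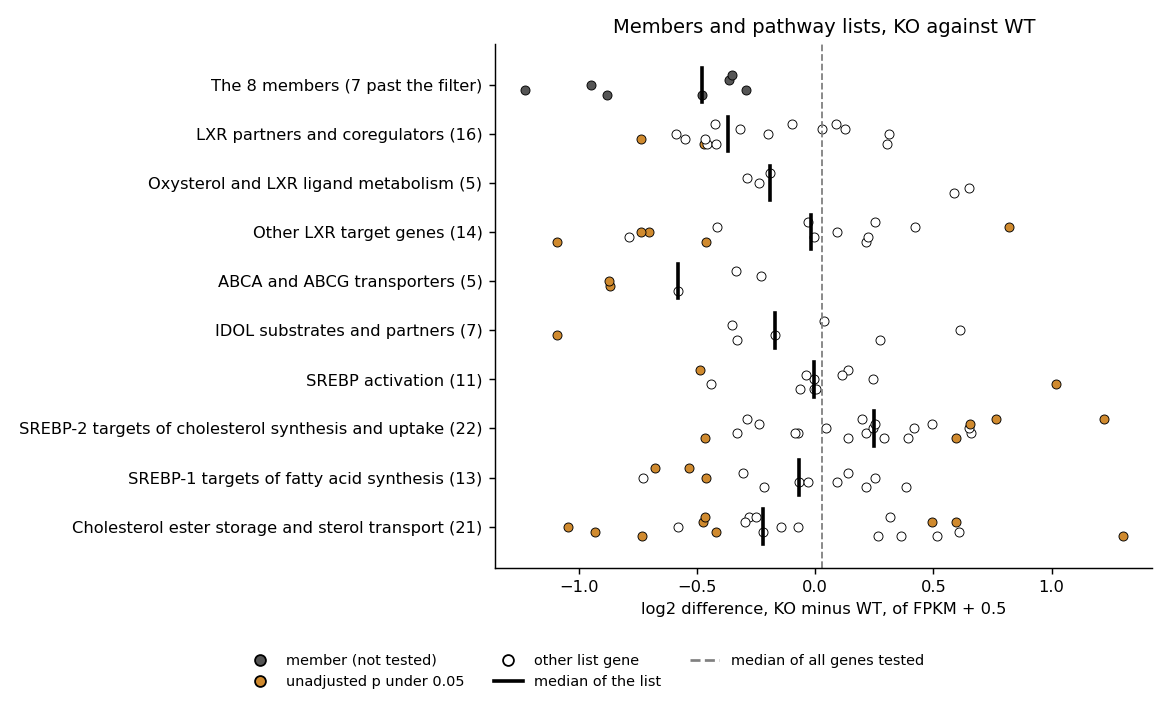
Log2 difference, KO minus WT, of FPKM + 0.5 (horizontal axis) for the 7 members past the filter and the tested genes of 9 lists (rows, number tested in brackets). Grey points are members, which were not tested, orange points had an unadjusted limma p under 0.05, thick bars are list medians and the dashed line is the median of all genes, 0.031. The 5 tested ABCA and ABCG transporters lie left of 0, and the SREBP-2 targets have the highest list median, 0.250.

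The other tested transporters of the ABCA and ABCG families had differences of the same sign as Abca1 and Abcg1. Of 20 genes, 5 passed the filter (Abca2, Abca3, Abca7, Abcg2 and Abcg3), all with negative differences and a median of -0.58. Among all 12654 genes tested, 6022 had a negative difference. The 2 with an unadjusted p under 0.05 were Abca3 and Abca7. For Abcg2 and Abcg3 the groups overlapped, with log2 differences of -0.231 (SE 0.311) and -0.335 (SE 0.281). Abca7, a close relative of Abca1 that moves phospholipid, had 9.38, 7.52 and 10.2 FPKM in KO, against 16.3, 18.2 and 16.0 FPKM in WT, without overlap (log2 difference -0.87, SE 0.167, limma adjusted p = 0.0887). Abca2, a transporter of late endosomes and lysosomes, had 9.13, 6.05 and 12.2 FPKM in KO, against 12.5, 12.4 and 15.3 FPKM in WT (log2 difference -0.58, SE 0.258, and -0.33 without KO replicate 2). Abca3, known from lung surfactant and picked after its values were seen, averaged 2.82 ± 1.02 FPKM in KO and 5.42 ± 0.629 FPKM in WT (SD, n = 3 each). The sterol exporters Abcg5 and Abcg8 of gut and liver had 1 and 0 reads in total in KO and 0 and 4 reads in WT. With each library left out in turn, the list median spanned -0.80 to -0.48.

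LXR partners and coregulators gave 16 tested genes of 17, with 2 lower and 0 higher at an unadjusted p under 0.05 and a median of -0.37, which came to -0.57 when KO replicate 3 was left out and -0.17 when KO replicate 2 was. The 2 were Nrip1 and the coactivator Crebbp (log2 difference -0.47), both picked after their values were seen. Rxrb, the most abundant retinoid X receptor and the partner through which LXRs bind DNA, had 24.9, 31.1 and 28.2 FPKM in KO, against 26.0, 28.4 and 27.9 FPKM in WT. Its groups overlapped, with a log2 difference of 0.03 that was -0.05 without KO replicate 2 and -0.12 with array weights. Gps2, a corepressor subunit, had 27.4, 27.8 and 27.5 FPKM in KO, against 31.2, 33.9 and 30.2 FPKM in WT (log2 difference -0.20, SE 0.140). Nrip1, a corepressor that is also an LXR target, averaged 3.21 ± 0.0762 FPKM in KO and 5.72 ± 0.850 FPKM in WT (SD, n = 3 each, log2 difference -0.74, limma adjusted p = 0.107).

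Most genes that make or remove LXR ligands were at or near 0. Of 12, 5 were tested, and none had an unadjusted p under 0.05. Their median was -0.19, and it turned to 0.06 without WT replicate 1 and came to -0.04 without KO replicate 2. Ch25h and Cyp27a1, hydroxylases that make oxysterols, and Cyp46a1 had 0 reads in all 6 libraries. Ebp, a sterol isomerase late in cholesterol synthesis, had 16.7, 14.6 and 15.5 FPKM in KO, against 18.1, 19.3 and 19.97 FPKM in WT, without overlap (log2 difference -0.29, SE 0.142).

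Of 27 other LXR target genes, 14 were tested, with 4 lower and 1 higher at an unadjusted p under 0.05. Their median was -0.02, but it was not stable: it was -0.22 without KO replicate 2 or 3, -0.21 without WT replicate 1, -0.10 without WT replicate 2, 0.02 without KO replicate 1 and 0.12 without WT replicate 3. limma-voom on the rebuilt reads gave -0.34, where all genes had -0.001. Those lower included Arl4c, Scd2 and Nrip1, and the 1 higher was Cd38. Nrip1 and Cd38 were picked after their values were seen. Arl4c, a small GTPase tied to cholesterol export, had 25.3, 27.8 and 45.2 FPKM in KO, against 45.7, 49.7 and 61.3 FPKM in WT (log2 difference -0.70, SE 0.255, limma adjusted p = 0.182). Scd2, a fatty acid desaturase, had 70.6, 64.7 and 53.4 FPKM in KO, against 79.7, 78.9 and 101.9 FPKM in WT (log2 difference -0.46, SE 0.192). Both were lower in every KO library than in any WT library. Mertk and Cd5l, known as targets in macrophages and picked after their values were seen, had 0 reads in all libraries. Not all such targets were absent. Apoe, Pltp and Tgm2 passed the filter, and Apoe averaged 4.68 ± 3.15 FPKM in KO and 3.46 ± 0.322 FPKM in WT (SD, n = 3 each). Cd38, an ectoenzyme that consumes NAD, had a log2 difference of 0.82.

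For IDOL, 7 of 10 substrates and partners were tested, with 1 lower and 0 higher at an unadjusted p under 0.05 and a median of -0.17. The median came to -0.29 when KO replicate 3 was left out and -0.11 without KO replicate 1 or 2 or WT replicate 3. The groups overlapped for its 2 most abundant ubiquitin-conjugating partners. Ube2d2a had 78.2, 93.1 and 58.9 FPKM in KO and 76.6, 80.7 and 64.3 FPKM in WT, and Ube2d3 averaged 24.2 ± 4.48 FPKM in KO and 19.7 ± 0.243 FPKM in WT (SD, n = 3 each).

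The machinery that releases SREBPs gave 11 tested genes of 12 and a median of -0.003, with 1 lower (Rnf145) and 1 higher (Erlin1) at an unadjusted p under 0.05. With a library left out the median spanned -0.07 (without KO replicate 3) to 0.06 (without WT replicate 2), changing sign. Insig1, which holds SREBPs in the endoplasmic reticulum and is itself an SREBP target, had 25.6, 35.2 and 15.3 FPKM in KO, against 22.3, 20.2 and 22.9 FPKM in WT. The KO libraries spanned the whole WT range. Erlin1 and Rnf145, regulators of SREBP release picked after their values were seen, had differences of opposite sign. Erlin1 averaged 5.96 ± 0.840 FPKM in KO and 2.71 ± 0.618 FPKM in WT, and Rnf145 averaged 15.3 ± 0.702 FPKM in KO and 21.6 ± 0.881 FPKM in WT (SD, n = 3 each).

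SREBP-2 targets of cholesterol synthesis and uptake were the list with the highest median, 0.250, beside 0.031 over all genes tested, while Srebf2 itself had a negative difference. Of 24 genes, 22 were tested, 16 with a positive and 6 with a negative difference, and at an unadjusted p under 0.05 there were 4 higher (Idi1, Sqle, Msmo1 and Stard4) and 1 lower (Mvk), all picked after their values were seen. Cyp51, a demethylase of the pathway, had 41.1, 53.3 and 27.3 FPKM in KO, against 23.9, 19.5 and 32.1 FPKM in WT. KO replicates 1 and 2 were above every WT library and KO replicate 3 was among them (log2 difference 0.66, SE 0.293, or 0.44 without KO replicate 2, limma adjusted p = 0.248). Idi1, the isomerase of the pathway, and Sqle, its squalene epoxidase, had all KO libraries above all WT libraries. Idi1 had 27.1, 36.8 and 20.7 FPKM in KO, against 10.3, 9.10 and 16.0 FPKM in WT (log2 difference 1.22, SE 0.286, limma adjusted p = 0.107). Sqle averaged 13.1 ± 0.377 FPKM in KO and 7.74 ± 2.66 FPKM in WT (SD, n = 3 each). Rescaling the libraries shifted this list and the whole set of genes together. Equal sums of FPKM brought their medians to 0.01 and -0.20, and equal read totals to 0.12 and -0.10, list first. The distance between the 2 medians changed little under either scaling. The list median was 0.42 without WT replicate 3 and 0.16 without WT replicate 2.

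SREBP-1 targets of fatty acid synthesis gave 13 tested genes of 17, with 3 lower and 0 higher at an unadjusted p under 0.05 and a median of -0.07. That median lay at -0.28 to -0.23 when KO replicate 1 or 3 or WT replicate 1 or 2 was left out and at 0.03 without WT replicate 3, and limma-voom gave -0.19. The 3 were Scd2, given above, and Elovl6 and Lpin1, both picked after their values were seen (log2 differences -0.54 and -0.68). Acly, which makes the acetyl-CoA used for lipid synthesis, had 49.2, 44.2 and 60.2 FPKM in KO and 43.4, 42.9 and 57.8 FPKM in WT, with overlap.

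Beside Soat1, 21 of 24 genes of cholesterol ester storage and sterol transport were tested, with 6 lower and 3 higher at an unadjusted p under 0.05 and a median of -0.22, which was -0.36 without KO replicate 3, -0.14 without WT replicate 3 and -0.07 without KO replicate 2. The 3 were Tmem97, Stard4 and Plin2, a lipid droplet coat protein (log2 difference 0.50), of which Plin2 and Stard4 were picked after their values were seen. Npc2, which hands cholesterol on inside the lysosome, had 50.5, 53.7 and 86.6 FPKM in KO, against 122.7, 127.0 and 133.4 FPKM in WT, without overlap (log2 difference -1.04, SE 0.237, limma adjusted p = 0.107). Its membrane partner Npc1, picked after its values were seen, had 3.00, 1.76 and 3.51 FPKM in KO, against 6.58, 6.36 and 4.05 FPKM in WT (log2 difference -0.93, SE 0.283). Tmem97, a sterol-responsive protein that binds NPC1, had the opposite sign, with 57.9, 61.9 and 42.1 FPKM in KO, against 19.6, 16.8 and 29.4 FPKM in WT (log2 difference 1.30, SE 0.258, limma adjusted p = 0.0948). Gramd1a, which carries plasma membrane cholesterol to the endoplasmic reticulum, averaged 18.7 ± 2.45 FPKM in KO and 31.3 ± 3.43 FPKM in WT, and Stard4, a soluble sterol carrier, averaged 20.8 ± 4.87 FPKM in KO and 13.4 ± 0.869 FPKM in WT (SD, n = 3 each). Soat2, the second esterifying enzyme, averaged 18.9 ± 5.08 FPKM in KO and 12.5 ± 5.24 FPKM in WT with overlap (SD, n = 3 each), so on the FPKM scale it was above Soat1 in both groups. Gramd1a and Soat2 were also picked after their values were seen.

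**Figure D4:**
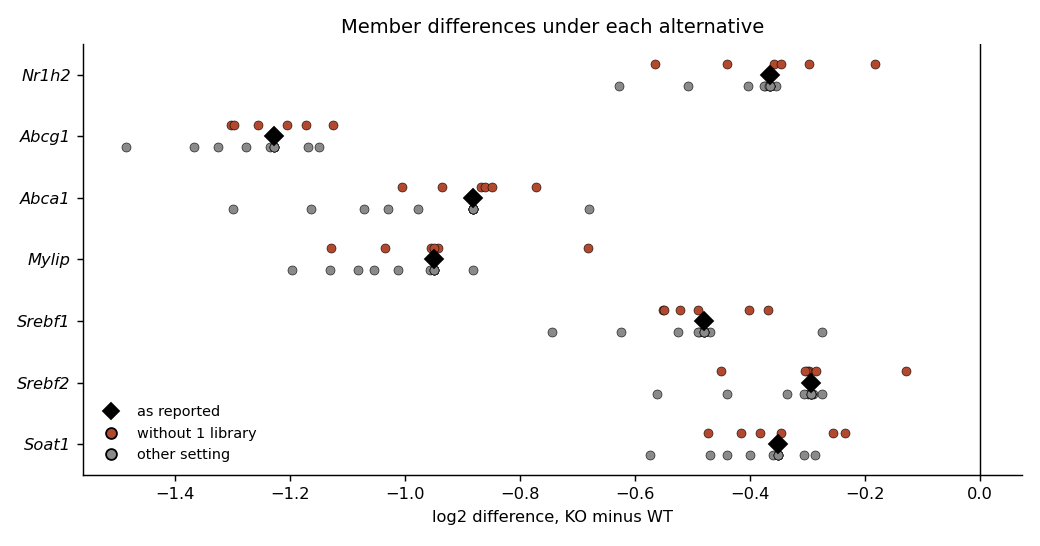
Log2 difference, KO minus WT, of the 7 members past the filter (rows) as reported (diamond), with each library left out in turn (red) and under the other settings run (grey). Every point lies left of 0, and Abcg1 spans -1.49 to -1.13.

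Under each alternative run, the difference of each of the 7 members past the filter stayed negative. Abcg1 spanned -1.49 to -1.13 on the log2 scale, Mylip -1.20 to -0.68 and Abca1 -1.30 to -0.68. Srebf2 came nearest to 0, at -0.13 without KO replicate 2.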

How the data were processed

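RNA of activated CD8 T cells from 3 KO and 3 WT samples was sequenced from stranded mRNA libraries, per the labels' protocols. The authors deposited 1 FPKM value per gene and sample with gene lengths in bases, per the file headers. The submitters' processing notes name featureCounts 1.5.0-p3, HISAT2 2.0.5, DESeq2, Trim Galore and build mm10 without roles. The labels name no batch. How multiply aligned reads were counted, and against which annotation, is not given in the sources used here.

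Multiplied by gene length, FPKM took whole multiples of a library-specific step, within 0.05, for at least 99.9942% of values per library. Reads rebuilt from these steps gave the depths. Of 54532 identifiers, 54409 matched GENCODE M21, which gave coordinates, counted from 1, and 123 did not match.

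Genotype was fitted with limma 3.58.1 in R 4.3.3 on log2(FPKM + 0.5) for 12654 genes with a mean of at least 0.5 FPKM (lmFit, eBayes with a mean-variance trend, 2-sided). Genes were called at a Benjamini-Hochberg adjusted p under 0.05. Standard errors come from this fit. The fit was tested on simulated data. The simulation gave every gene and library the same spread, so it does not cover a library that stands apart. The members and lists were chosen with earlier results of these data known. Named genes were the 8 members, the 2 tested genes of highest mean FPKM in each list plus any called, the 5 most like Abcg1, and Ptpmt1. Some list genes count in the totals but are not reported here by name. Alternatives covered the pseudocount, filter, scaling, variance model, sample weights, limma-voom on the rebuilt reads, a replicate block and each library left out. Tables and plots used Python 3.11.15, pandas 2.3.3 and matplotlib 3.10.9.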

Additional observations from a re-analysis of the deposited data

How the results depend on the processing

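The count of called genes over the whole table, 5 as reported (3 higher and 2 lower in KO), was 3 with a pseudocount of 1, 3 with no filter, 14 without the mean-variance trend, 6710 with array weights, which gave KO replicate 1 a weight of 9.096 and KO replicate 3 one of 0.192, and 1 with limma-voom. Scaling to equal sums of FPKM, chosen after seeing the data, gave 5 with 2 higher and 3 lower, and moved the median of all genes to -0.20. Leaving out libraries gave 2 to 1733 genes: 1733 without KO replicate 3, 3 without KO replicate 1, and 2 without WT replicate 1, 2 or 3. Of the list genes, 0 were called as reported, 61 with array weights and 0 to 15 with a library left out, the 15 without KO replicate 3. The array weights came from gene by gene updates, because the iterative estimate did not converge on these libraries. The causes of the differences in count were not tested.

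Between the deviations of same-numbered libraries r was 0.132, 0.067 and 0.331, and between those of unlike number it spanned -0.307 to 0.267. With 3 libraries per group these values cannot settle whether the replicate numbers pair the libraries, and the labels do not say. With the replicate block 12 genes were called, and 0 list genes.

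The sign of the 7 members past the filter held in all 18 alternatives. Beyond 1 SD within groups, Abca1 moved to -1.164 with a pseudocount of 0.1, -0.680 with a pseudocount of 1, -1.299 with limma-voom and -1.071 with equal FPKM sums. Equal FPKM sums also moved Abcg1 to -1.485, Srebf1 to -0.745, Srebf2 to -0.561 and Soat1 to -0.573, and array weights moved Srebf1 to -0.274. For Nr1h3, under the filter, only the fit without a filter gave a value.

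Some uncalled list genes near 0 turned sign. Equal totals and equal FPKM sums lower all genes alike (medians -0.095 and -0.201), so turns under them say nothing of 1 gene. With equal totals, Acly was -0.053, Insig1 -0.007, Rxrb -0.119 and Ube2d2a -0.112. With equal FPKM sums, Acly was -0.175, Insig1 -0.128, Rxrb -0.240 and Ube2d2a -0.235. Array weights gave -0.121 for Rxrb, and limma-voom gave -0.007 for Rxrb. With a library left out, Acly spanned -0.028 to 0.233, Insig1 -0.131 to 0.456, Rxrb -0.049 to 0.110 and Ube2d2a -0.116 to 0.213.

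Depth limits Nr1h3, with 19 reads over KO and 45 over WT.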
